A study of Mus musculus with 24 samples.

Results

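Ornithine is the substrate of ornithine decarboxylase, the enzyme that difluoromethylornithine (DFMO) blocks, and 9 enzymes that lead into or out of ornithine, or handle the glutamate and proline beside it, are described here in mouse fibroblasts given spermidine. They were chosen by symbol, as routes into and out of ornithine, and the rule uses no measured value: Arg1, Arg2, Ass1, Asl, Oat, Aldh18a1, Pycr1, Prodh and Glul. The choice was made with earlier results of these data known. Of these, 7 had a probe set of their own in the platform annotation and entered the tests among 19938 genes. Ass1 had only probe sets shared with the pseudogene Gm5424, and Pycr1 was named by no probe set in that annotation and is not analysed here.

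The arrays came from cells of the immortalised mouse embryo fibroblast line NIH3T3, held in 1 mM DFMO for 96 h. All 8 groups share that treatment: 1 was harvested before spermidine (0 min) and 7 followed 10 µM spermidine, at 30, 60 and 120 min, then at 240, 360 and 480 min, and last at 600 min. Spermidine was added together with 1 mM aminoguanidine, an inhibitor of amine oxidases. With 3 biological replicates per group there were 24 arrays, of the type Affymetrix MoGene 1.0 ST. No label names time-matched cells left in DFMO alone, so spermidine and time in culture cannot be told apart, and whether aminoguanidine was also given at 0 min is unstated. The label gives 1 cell line, so animal to animal variation is not represented.

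Arginases split arginine into urea and ornithine, and ornithine decarboxylase then turns ornithine into putrescine, from which the polyamines are built. Ornithine aminotransferase (Oat) links ornithine to pyrroline-5-carboxylate, an intermediate that the product of Aldh18a1 makes from glutamate, that Pycr1 reduces to proline and that Prodh regenerates from proline. Glutamine synthetase (Glul) makes glutamine from glutamate and ammonia, and Ass1 and Asl rebuild arginine from citrulline and aspartate.

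Values are the deposited log2 values. Precision is set by the small number of arrays, with a median standard error of 0.0567 for a log2 difference from 0 min. On 2 arrays the values did not sit with those of their labelled time along the first principal component (63.1% of the variance over all genes). Replicate 3 of 120 min scored 2.61, where the others of its time scored -12.2 each. Replicate 3 of 240 min scored -13.2, where the others of its time scored 2.07 and 1.49. Each thus scored near the other arrays of the time that labels the other one. Whether these 2 labels were exchanged was not tested. Both arrays were kept as labelled, so values of single arrays and means at 120 and 240 min hold only if the labels do, and the counts are also given without them. Of 10 fibroblast markers, 9 (all but Lum) had a mean above 4.44, the 95th percentile of the means of 1027 olfactory receptor genes, which fibroblasts are not known to use. Of 10 macrophage markers 3 did (Lyz2, Cd14 and Cd68), and of 10 hepatocyte markers 0 did. Alb, a defining hepatocyte gene, was at 3.66, and Adgre1, a defining macrophage gene, at 4.03. The summed log2 level of the fibroblast list ranged from 91.55 to 91.84 at 600 min and from 89.71 to 91.78 at 0 min, that of the hepatocyte list from 39.0 to 39.74 at 600 min and from 39.02 to 39.34 at 0 min. The sum of the macrophage list ranged from 43.29 to 44.41 at 600 min and from 43.68 to 43.86 at 0 min. Of the fibroblast markers 2 were called higher at 600 min than at 0 min, Pdgfrb by 0.42 ± 0.13 (adjusted p = 0.0198) and Vim by 0.10 ± 0.03 (adjusted p = 0.0259). Chil3, at 3.99 at 600 min and 3.79 at 0 min, was the 1 macrophage marker called at 600 min (adjusted p = 0.0266), and the part of these markers in the results was not tested. An array level cannot tell fewer expressing cells from less RNA per cell.

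The start regions of the 3 members that differed most among the times are shown because Oat and Glul moved one way and Aldh18a1 the other. They are the RefSeq windows of build GRCm38.p6, 250 bases before to 50 after the annotated start, written 5′ to 3′ on the strand of the gene. Aldh18a1 lies at chr19:40588414-40588713 (minus strand), Oat at chr7:132576349-132576648 (minus strand) and Glul at chr1:153899679-153899978 (plus strand). Capitals mark a match to a searched motif.
Aldh18a1: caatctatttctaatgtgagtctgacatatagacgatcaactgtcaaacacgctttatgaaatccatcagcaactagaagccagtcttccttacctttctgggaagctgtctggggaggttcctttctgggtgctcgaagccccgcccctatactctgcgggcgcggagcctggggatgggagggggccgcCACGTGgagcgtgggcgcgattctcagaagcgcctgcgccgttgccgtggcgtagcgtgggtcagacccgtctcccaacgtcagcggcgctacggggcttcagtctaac
Oat: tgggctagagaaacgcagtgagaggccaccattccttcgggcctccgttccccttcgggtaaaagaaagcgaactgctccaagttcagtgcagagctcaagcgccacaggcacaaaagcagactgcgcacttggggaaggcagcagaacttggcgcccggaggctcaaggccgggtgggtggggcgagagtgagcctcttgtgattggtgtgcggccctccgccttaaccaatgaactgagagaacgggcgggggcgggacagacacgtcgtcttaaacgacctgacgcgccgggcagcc
Glul: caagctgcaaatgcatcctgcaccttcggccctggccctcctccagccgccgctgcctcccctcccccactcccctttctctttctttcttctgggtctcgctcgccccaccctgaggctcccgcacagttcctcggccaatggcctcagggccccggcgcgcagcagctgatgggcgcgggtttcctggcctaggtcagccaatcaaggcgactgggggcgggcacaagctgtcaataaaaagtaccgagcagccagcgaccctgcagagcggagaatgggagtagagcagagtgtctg

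Both strands were searched for 4 strings: the core of the C/EBP-ATF composite element (TGATGNAA), the E-box (CACGTG), and the E2F strings TTTCGCGC and TTTGGCGC. The Aldh18a1 window held 1 E-box, its first base at position -59 from the start. Over all 32851 windows of the table, 7.15% held an E-box. The Oat and Glul windows held none of the 4 strings. RefSeq windows were at hand for 6 of the 9 enzymes. Among the rest, the Ass1 window held an E-box at -36 and the Pycr1 window held a C/EBP-ATF core at -103, a string present in 3.97% of all windows, while the E2F strings were present in 0.32% and 0.51%. These are matches of letters and were not tested as binding sites.

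Of the 7 enzymes, 3 differed among the times by the F-test: Aldh18a1, Oat and Glul. Aldh18a1 was lower from 360 min on, to 0.523 times its 0 min level at 600 min, while Oat was higher, at 1.33 times. Glul was higher on probe set 10374453, at 1.85 times. On its other probe set (10350753) the log2 rise was 0.42 at 600 min (limma adjusted p = 0.0451). At 360 min it was 0.26 and not called (adjusted p = 0.312). Asl passed the test at 600 min, at 0.847 times its 0 min level. Arg1, Arg2 and Prodh, and the probe sets shared by Ass1 and Gm5424, lay within the range of olfactory receptor genes at every time.

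By the F-test 3 of the 7 were called (limma, adjusted p under 0.05), against 30.9% of all genes. Against 0 min, limma called 0 at 30 min (0.0150% of all genes called), 0 at 60 min (0.0251%), 0 at 120 min (0.471%) and 0 at 240 min (3.06%). At an unadjusted p under 0.05 those counts were 0, 0, 1 (Arg2) and 0, and the share of all genes at that threshold is not given here. At 360 min 2 rose and 1 fell (19.0% of all genes called, 8.47% higher and 10.5% lower). At 480 min 2 rose and 1 fell (24.2% called, 9.73% higher and 14.5% lower), and at 600 min 2 rose and 2 fell (26.9% called, 11.2% higher and 15.7% lower). The median change of the 7 at 600 min was -0.03, against 0.01 for all genes. With the replicate block the count at 360 min was 2, Oat being lost (adjusted p = 0.0504). With both off-place arrays left out, limma called 1 at 240 min (Aldh18a1), 3 at 360 min, 3 at 480 min and 4 at 600 min. The same 3 arrays of 0 min stand in each of these comparisons. The labels call the replicates biological without naming separate cultures, so the p-values measure the spread between these samples.

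**Figure D1:**
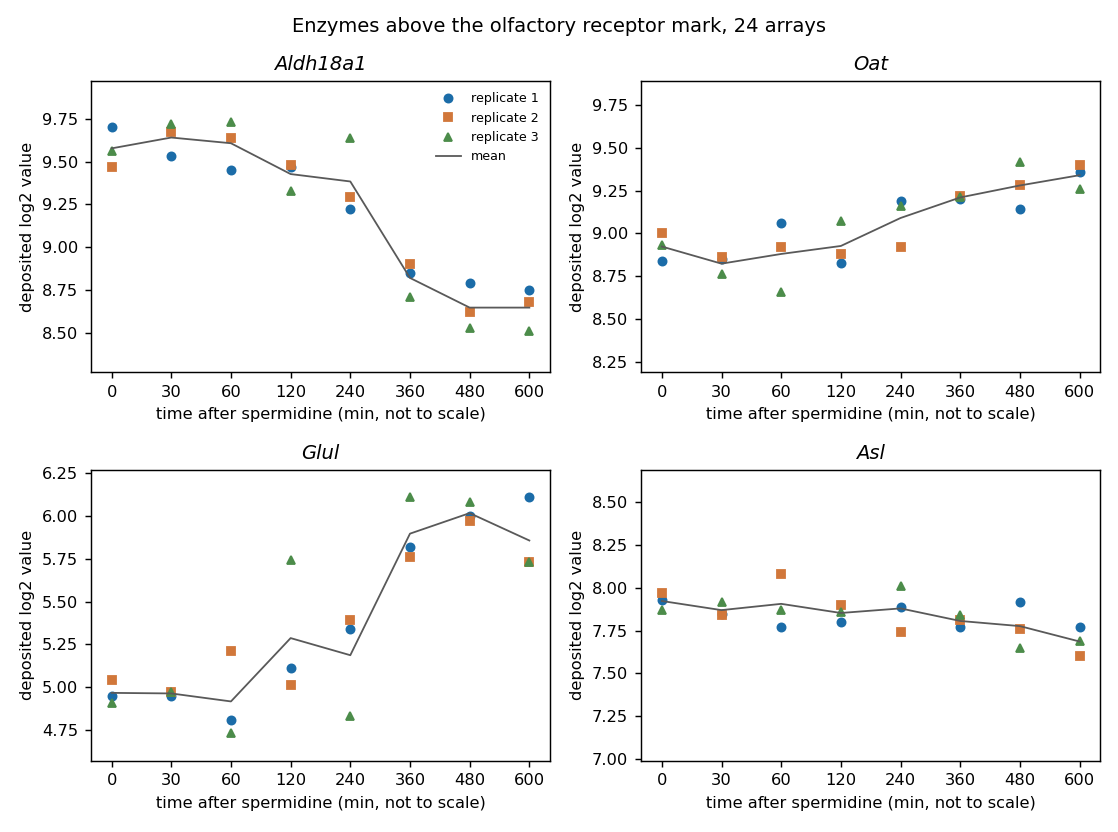
Deposited log2 values of Aldh18a1, Oat, Glul and Asl (vertical axes, each spanning the same width) on the 24 arrays by time after spermidine in min (horizontal axis, not to scale); symbols are replicates and the line joins the means of 3 arrays. Aldh18a1 drops between 240 and 360 min, where Glul steps up, and Oat has a mean of 9.34 at 600 min and 8.93 at 0 min.

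Aldh18a1 encodes pyrroline-5-carboxylate synthase, the mitochondrial enzyme that commits glutamate to proline and ornithine. Its log2 level was 9.70, 9.47 and 9.56 at 0 min, 9.53, 9.67 and 9.72 at 30 min, 9.45, 9.64 and 9.73 at 60 min, then 9.47, 9.48 and 9.33 at 120 min. It was 9.22, 9.29 and 9.64 at 240 min, 8.85, 8.90 and 8.71 at 360 min, 8.79, 8.62 and 8.53 at 480 min, then 8.75, 8.68 and 8.51 at 600 min. Every array from 360 min on lay below every array up to 240 min. Ordered from low to high by mean, the times ran 600, 480, 360, 240, 120, 0, 60 and 30 min, and only the arrays of 360 and 240 min did not overlap among neighbours in that order.

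The level of Aldh18a1 fell by 0.76 ± 0.10 on the log2 scale at 360 min (SE, adjusted p = 3.26e-05), by 0.93 ± 0.10 at 480 min (adjusted p = 1.36e-06) and by 0.93 ± 0.10 at 600 min (adjusted p = 7.23e-07). At 600 min its mean was 8.64 ± 0.12 and at 0 min 9.58 ± 0.12 (SD, n = 3 each), and 146 other genes of 19938 had a fall at least as large. Among neighbouring times only 360 against 240 min was called for Aldh18a1, with a log2 difference of -0.56 ± 0.10 (adjusted p = 0.00309), or -0.43 without both off-place arrays (adjusted p = 0.0138). Later neighbouring times differed by -0.17 (480 against 360 min, adjusted p = 0.632) and -0.01 (600 against 480 min, adjusted p = 0.993). At 240 min the difference from 0 min was -0.20 (adjusted p = 0.372). That value rested on replicate 3 of 240 min: without that array it was -0.33 (adjusted p = 0.0462), without both off-place arrays -0.33 (adjusted p = 0.0363), and with the replicate block as well adjusted p was 0.0529. The calls against 0 min from 360 min on held when any 1 array was left out, and the difference between 360 and 240 min lost its call when only those arrays were fitted (adjusted p = 0.0722).

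Oat encodes ornithine aminotransferase, which moves the amino group between ornithine and glutamate and so connects ornithine to proline. Its log2 level was 8.84, 9.00 and 8.93 at 0 min, 8.85, 8.86 and 8.76 at 30 min, 9.06, 8.92 and 8.66 at 60 min, then 8.83, 8.88 and 9.07 at 120 min. It was 9.19, 8.92 and 9.16 at 240 min, 9.20, 9.22 and 9.21 at 360 min, 9.14, 9.28 and 9.42 at 480 min, then 9.36, 9.40 and 9.26 at 600 min. All 9 arrays from 360 min on lay above all 12 arrays up to 120 min, and those of 240 min lay between or among them. By mean the order from low to high was 30, 60, 0, 120, 240, 360, 480 and 600 min, and in it the arrays of 240 and 360 min did not overlap, while all other neighbours did.

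Oat rose by 0.41 ± 0.09 at 600 min (adjusted p = 0.00150), where its mean was 9.34 ± 0.07, against 8.93 ± 0.08 at 0 min (SD, n = 3 each). At 480 min the change was 0.36 ± 0.09 (adjusted p = 0.00585). At 360 min it was 0.29 ± 0.09 (adjusted p = 0.0311), a call that ended with the replicate block (adjusted p = 0.0504), with all probe sets in the fit (adjusted p = 0.0524), and when single arrays were left out: replicate 1 (0.126) or 3 (0.0712) at 0 min, replicate 1 (0.0675), 2 (0.0791) or 3 (0.0742) at 360 min. No neighbouring times differed past the threshold for Oat, with differences of 0.16 for 240 against 120 min (adjusted p = 0.596) and 0.12 for 360 against 240 min (adjusted p = 0.541).

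Glul encodes glutamine synthetase, the enzyme that makes glutamine. On the probe set with the higher mean (10374453) its log2 level was 4.95, 5.04 and 4.91 at 0 min, 4.95, 4.97 and 4.97 at 30 min, 4.81, 5.21 and 4.73 at 60 min, then 5.11, 5.01 and 5.74 at 120 min. It was 5.34, 5.39 and 4.83 at 240 min, 5.82, 5.76 and 6.11 at 360 min, 6.00, 5.97 and 6.08 at 480 min, then 6.11, 5.73 and 5.73 at 600 min. All 9 arrays from 360 min on lay above those at 0, 30 and 60 min. The high array at 120 min and the low array at 240 min are those out of place on the first principal component. On the other probe set (10350753) these arrays went the opposite way. There replicate 3 was the lowest at 120 min (5.13, against 5.42 and 5.46) and the highest at 240 min (5.44, against 5.28 and 5.02).

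Glul rose by 0.93 ± 0.17 at 360 min (adjusted p = 4.71e-04), 1.05 ± 0.17 at 480 min (adjusted p = 8.27e-05) and 0.89 ± 0.17 at 600 min (adjusted p = 3.70e-04). Its mean was 5.86 ± 0.22 at 600 min and 4.96 ± 0.07 at 0 min (SD, n = 3 each), and 240 other genes had a rise at least as large. At 360 min the level was higher than at 240 min by 0.71 ± 0.17 (adjusted p = 0.0167). This call ended without replicate 3 of 240 min (0.53, adjusted p = 0.145) or replicate 3 of 360 min (0.61, adjusted p = 0.0942). It also ended when only the arrays of these times were fitted (adjusted p = 0.0923). Without both off-place arrays it was kept (0.53, adjusted p = 0.0225), and with the replicate block as well (0.54, adjusted p = 0.0471). The changes at 120 min (0.32, adjusted p = 0.462) and 240 min (0.22, adjusted p = 0.607) became 0.10 (adjusted p = 0.907) and 0.40 (adjusted p = 0.0574) without both off-place arrays.

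**Figure D2:**
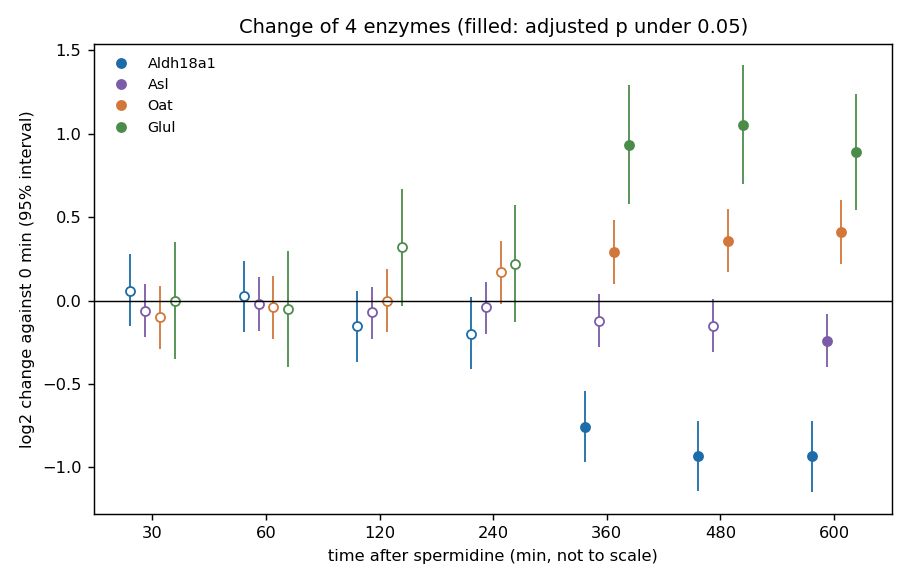
Log2 change against 0 min (vertical axis) of Aldh18a1, Asl, Oat and Glul at the 7 later times in min (horizontal axis, not to scale); bars are 95% intervals of the limma fit, and filled points have an adjusted p under 0.05. The filled points begin at 360 min for Aldh18a1, Oat and Glul and appear at 600 min for Asl, where the changes are -0.93, 0.41, 0.89 and -0.24.

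The annotation gives Glul a further probe set (10350753), and its change was smaller. Its mean was 5.64 ± 0.15 at 600 min and 5.23 ± 0.24 at 0 min (SD, n = 3 each). In a fit over all 35399 probe sets it was higher by 0.50 ± 0.14 at 480 min (adjusted p = 0.0177) and by 0.42 ± 0.14 at 600 min (adjusted p = 0.0451), and stood at 0.26 ± 0.14 at 360 min (adjusted p = 0.312). At 360 against 240 min, where 10374453 was called, probe set 10350753 was at 0.24 ± 0.14 and not called (adjusted p = 0.476). Over the 24 arrays the probe sets correlated with r = 0.69, both being read from the same arrays. Probe set 10374453 minus probe set 10350753 was 0.11 to 0.30 at 600 min and -0.44 to -0.00 at 0 min. The direction of the Glul change from 360 min on was thus shared by both, and the mean of both gave 0.60 at 360 min and 0.65 at 600 min. Probe set 10374453 was taken for its slightly higher mean (5.386 against 5.356). Probe set numbers rose with chromosome over Arg1 (10), Arg2 (12), Prodh (16) and Aldh18a1 (19), and 10374453 falls between those of Arg1 and Arg2. Glul lies on chromosome 1. The transcripts that each probe set reads were not analysed here, so whether 10374453 reads Glul was not tested. Where no probe set is named, Glul values are those of 10374453.

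**Figure D3:**
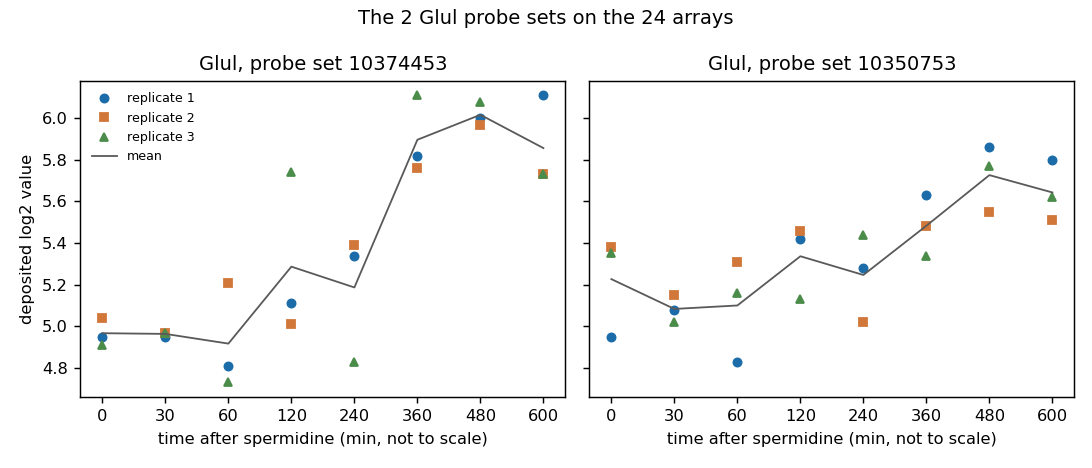
Deposited log2 values of both Glul probe sets (left 10374453, right 10350753) on the 24 arrays by time after spermidine in min (not to scale); symbols are replicates and lines join the means of 3 arrays. The left probe set steps up at 360 min, and the right one has a mean of 5.64 at 600 min and 5.23 at 0 min.

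Asl encodes argininosuccinate lyase, which releases arginine from argininosuccinate. Its log2 level was 7.93, 7.97 and 7.87 at 0 min, 7.85, 7.84 and 7.92 at 30 min, 7.77, 8.08 and 7.87 at 60 min, then 7.80, 7.90 and 7.86 at 120 min. It was 7.89, 7.74 and 8.01 at 240 min, 7.77, 7.81 and 7.84 at 360 min, 7.92, 7.76 and 7.65 at 480 min, then 7.77, 7.60 and 7.69 at 600 min. The arrays at 600 min lay below those at 0 min, but every pair of neighbours in the order of means overlapped. Asl fell by 0.24 ± 0.08 at 600 min (adjusted p = 0.0224), to a mean of 7.69 ± 0.08 against 7.93 ± 0.05 at 0 min (SD, n = 3 each), and 2751 other genes had a fall at least as large. The call ended when any 1 of 4 arrays was left out: replicate 1 (0.0574) or 2 (0.0846) at 0 min, replicate 2 (0.110) or 3 (0.0513) at 600 min. Asl was not called by the F-test (adjusted p = 0.200).

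Arg1, the cytosolic arginase of liver and macrophages, ranged from 3.69 to 3.83 over the 24 arrays, with a median of 3.73. Arg2, the mitochondrial arginase, ranged from 3.78 to 3.95, with a median of 3.88. Prodh, proline dehydrogenase, ranged from 3.80 to 3.92, with a median of 3.84. None of the 24 arrays of any of these 3 genes reached 4.44, and 4.1%, 16.7% and 13.4% of the olfactory receptor genes had a lower mean than Arg1, Arg2 and Prodh. Probe sets differ in how brightly they respond, so this places the signal near background and does not show that the RNA was absent. At 600 min the differences from 0 min were -0.03 for Arg1 (95% interval -0.10 to 0.04, adjusted p = 0.636), -0.02 for Arg2 (-0.10 to 0.05, adjusted p = 0.726) and -0.05 for Prodh (-0.13 to 0.02, adjusted p = 0.360). At such levels a log2 difference understates a change of the RNA.

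Ass1, argininosuccinate synthase, could not be read apart from Gm5424. Probe set 10363541 had means of 3.97 ± 0.07 at 600 min and 3.91 ± 0.03 at 0 min, and probe set 10471154 had 3.94 ± 0.06 at 600 min and 3.91 ± 0.01 at 0 min (SD, n = 3 each). Both lay below 4.44 on every array, and their differences at 600 min were 0.07 (adjusted p = 0.262) and 0.02 (adjusted p = 0.757) in the fit over all probe sets.

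**Figure D4:**
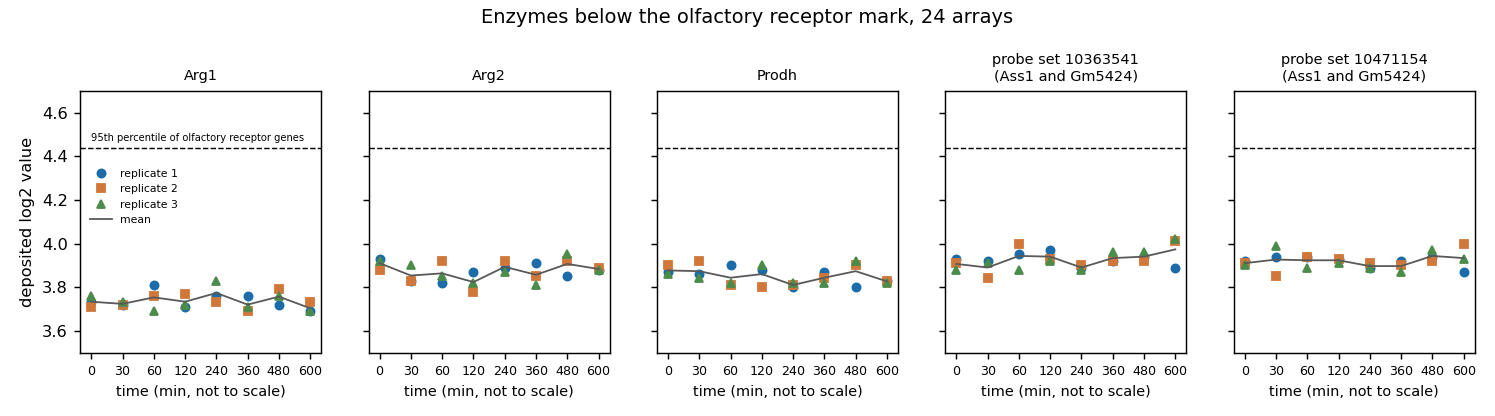
Deposited log2 values of Arg1, Arg2, Prodh and both probe sets shared by Ass1 and Gm5424 on the 24 arrays by time in min (not to scale); symbols are replicates, solid lines join means and the dashed line is the 95th percentile of olfactory receptor gene means (4.44). All points lie under the dashed line and show no step at 360 min.

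The mean of 360, 480 and 600 min was also set against that of 30, 60 and 120 min, a difference that leaves out the 0 min arrays. Of the 7 enzymes 2 were higher and 2 lower late than early, where 35.8% of all genes were called (16.4% higher and 19.4% lower). Aldh18a1 averaged 8.70 ± 0.13 late and 9.56 ± 0.14 early (SD, n = 9 each), a log2 difference of -0.85 ± 0.06 (SE, limma adjusted p = 5.69e-10) with no overlap of arrays. Oat averaged 9.28 ± 0.10 late and 8.88 ± 0.13 early, again with no overlap, a difference of 0.40 ± 0.05 (adjusted p = 2.86e-06). Glul averaged 5.92 ± 0.16 late and 5.05 ± 0.29 early, a difference of 0.87 ± 0.10 (adjusted p = 3.66e-07), and its groups touched only through replicate 3 of 120 min at 5.74. Asl averaged 7.76 ± 0.10 late and 7.88 ± 0.09 early, a difference of -0.12 ± 0.04 (adjusted p = 0.0402). That last call ended with the replicate block (adjusted p = 0.0598), with quantile normalization once more (0.0536) and without any 1 of several arrays, up to 0.0969 without replicate 2 of 60 min. Between neighbouring times limma called 2 of the 7 at 360 against 240 min, Glul higher and Aldh18a1 lower (6.05% of all genes, 4.25% higher and 1.80% lower), and 0 at 60 against 30 min (0.0451%), 120 against 60 min (0.411%), 240 against 120 min (0%), 480 against 360 min (0.612%) and 600 against 480 min (0.181%). At an unadjusted p under 0.05 there was 1 in those 5 intervals, Glul at 120 against 60 min (0.37, adjusted p = 0.375). For that threshold too, the share of all genes is not given.

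As a description, Aldh18a1 correlated over the 24 arrays with Oat at r = -0.88 and with Glul at r = -0.92, and Oat with Glul at r = 0.80. These points share the arrays and the time course. The genes most like Aldh18a1 in Pearson correlation over the 24 arrays were Cars (r = 0.987) and Iars (0.979), which encode the cysteinyl- and isoleucyl-tRNA synthetases, and Atf6 (0.981), the gene of a transcription factor of the endoplasmic reticulum. Most like Glul were Meaf6 (r = 0.982), of a histone acetyltransferase complex, Mms22l (0.974), of replication fork repair, and Atad2 (0.971), a bromodomain ATPase gene. Most like Oat were Cks1b (r = 0.954), which encodes a subunit of cyclin-dependent kinases, Aifm1 (0.946), of a mitochondrial flavoprotein, and the tetraspanin gene Cd9 (0.945).

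Other genes of the same pathways were read from lists of pathway members. At 600 min 11.2% of all genes were called higher than at 0 min and 15.7% lower. Of 6 measured other proline enzymes 2 rose and 1 fell, with a median of 0.04. P4ha2, a prolyl hydroxylase subunit gene of collagen maturation, had log2 levels of 8.27, 8.20 and 7.70 at 600 min, against 6.72, 6.68 and 6.57 at 0 min, a rise of 1.40 ± 0.17 (adjusted p = 2.81e-06). P4ha1, the gene of the related subunit, had 9.95, 9.91 and 9.72 at 600 min against 9.00, 8.94 and 8.79 at 0 min, a rise of 0.95 ± 0.12 (adjusted p = 3.72e-06). Aldh4a1, which oxidises pyrroline-5-carboxylate to glutamate and so runs opposite to Aldh18a1, fell by 0.53 ± 0.10 (adjusted p = 2.57e-04), with 4.79, 4.82 and 4.61 at 600 min against 5.51, 5.19 and 5.11 at 0 min. Pycrl, a cytosolic relative of Pycr1, was at -0.29 at 240 min (adjusted p = 0.00993) and at -0.24 at 360 min (adjusted p = 0.00585), and stood at -0.14 at 600 min (adjusted p = 0.0984).

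Of 11 other measured glutamine and glutamate enzymes 2 rose and 3 fell at 600 min, with a median of -0.01. Asns, asparagine synthetase, which spends glutamine, had 10.92, 10.89 and 10.76 at 600 min against 11.70, 11.57 and 11.64 at 0 min, a log2 change of -0.78 ± 0.06 (adjusted p = 5.32e-09). Got1, the cytosolic aspartate aminotransferase, fell by 0.44 ± 0.08 (adjusted p = 1.62e-04). Gclm, the modifier subunit of glutathione synthesis from glutamate, rose by 1.04 ± 0.16 (adjusted p = 5.10e-05). Ppat, the enzyme that uses glutamine to start purine synthesis, was higher at 360 min (0.32 ± 0.06, adjusted p = 9.77e-04) and stood at -0.05 at 600 min (adjusted p = 0.666).

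Of 8 measured genes of the urea cycle and of mitochondrial ornithine and aspartate carriers 1 rose and 1 fell at 600 min, and only 3 of the 8 had a mean above 4.44. Slc25a13, an aspartate-glutamate carrier, rose by 0.48 ± 0.09 (adjusted p = 3.30e-04), and Slc25a12, its close relative, fell by 0.30 ± 0.06 (adjusted p = 8.53e-04). Slc25a15, the carrier that brings ornithine into mitochondria, was at -0.23 at 480 min (adjusted p = 0.0286) and at -0.16 at 600 min (adjusted p = 0.123). Nags, which makes the activator of the urea cycle, averaged 3.72 and was at 0.04 at 600 min (adjusted p = 0.572). Of 9 other genes listed beside arginine, 4 had a mean above 4.44, and at 600 min 1 rose and 2 fell. Gatm, Nos1, Nos2 and Nos3 were below that level and were not called. Gamt, of creatine synthesis, rose by 0.56 ± 0.09 (adjusted p = 1.23e-04), Azin2, a relative of ornithine decarboxylase that inhibits antizyme, fell by 0.48 ± 0.09 (adjusted p = 4.81e-04), and Ddah1, which degrades methylated arginine, fell by 0.18 ± 0.05 (adjusted p = 0.00927). Nos2, inducible nitric oxide synthase, averaged 3.92 and was at 0.04 (adjusted p = 0.303).

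**Figure D5:**
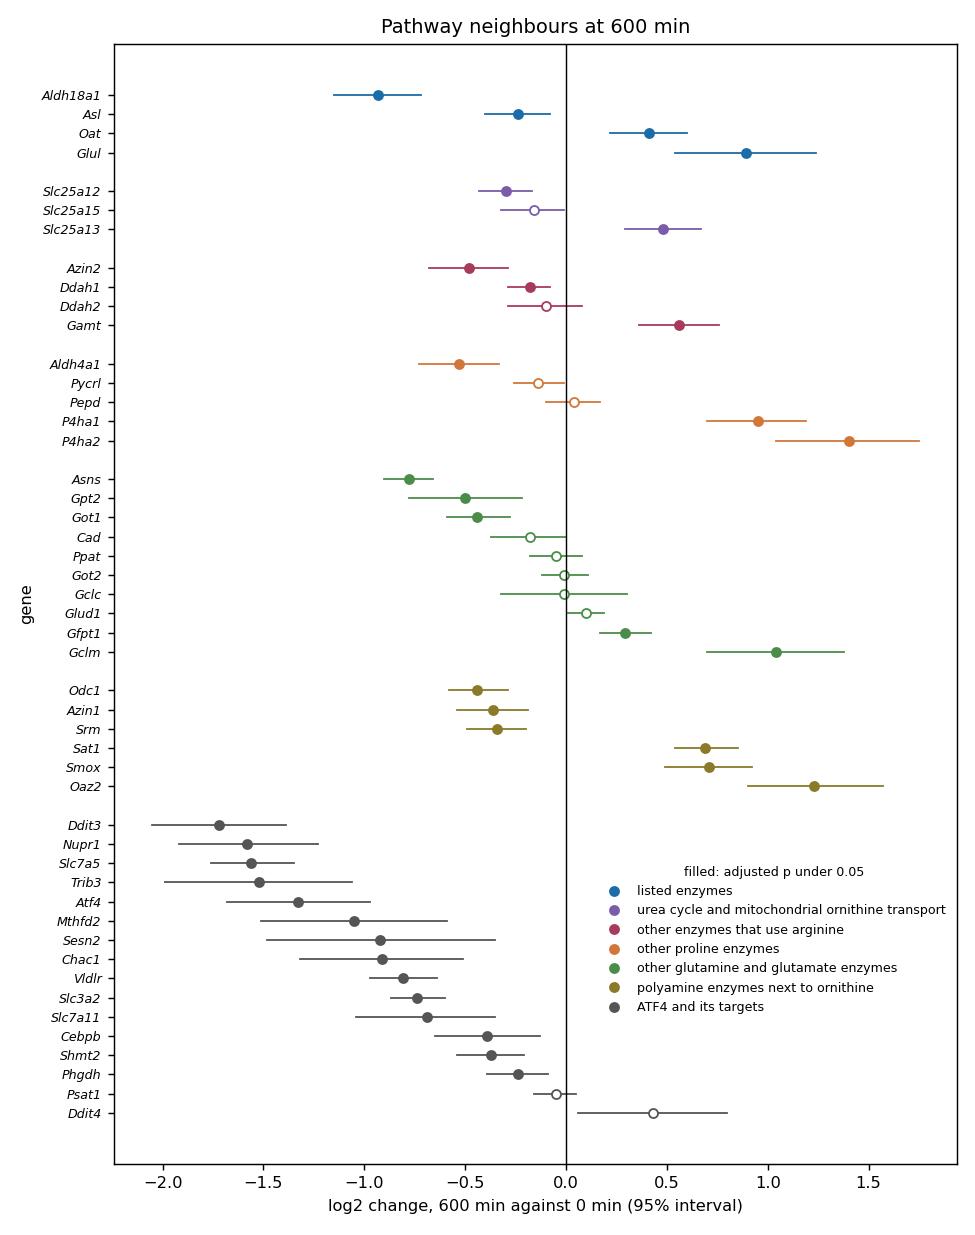
Log2 change at 600 min against 0 min (horizontal axis) with 95% intervals for every listed gene (rows) whose mean was above 4.44, coloured by list; filled points have an adjusted p under 0.05. Aldh18a1 at -0.93 and Asns at -0.78 lie on the side of most genes of the ATF4 list, and Glul at 0.89 lies beside P4ha1 at 0.95 and Gclm at 1.04.

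Of 10 listed polyamine genes 6 were measured, and Oaz1, Amd1, Sms and Paox were not among the genes tested. All 6 measured passed the test at 600 min, 3 higher and 3 lower, where 26.9% of all genes passed. Odc1, the DFMO target, fell by 0.44 ± 0.07 (adjusted p = 4.69e-05), while Oaz2, an antizyme gene, rose by 1.23 (adjusted p = 6.36e-06), Smox, spermine oxidase, by 0.71 (adjusted p = 2.88e-05) and Sat1, which acetylates polyamines, by 0.69 (adjusted p = 5.71e-07). Genes of ATF4, the transcription factor of the amino acid response, and its targets made a list of 16. Of these, 14 fell and 0 rose at 600 min, with a median of -0.86, where 15.7% of all genes were called lower and 11.2% higher. At 480 min 13 of the 16 fell and 1 rose. This list was drawn up with earlier results known. Slc7a5 (-1.56 ± 0.10, adjusted p = 7.96e-10) and Slc3a2 (-0.74 ± 0.06, adjusted p = 4.19e-08), which encode the chains of a large neutral amino acid transporter, and Ddit3 (-1.72 ± 0.16, adjusted p = 9.47e-08) and Vldlr (-0.81 ± 0.08, adjusted p = 1.61e-07) were lower. Atf4 itself, chosen after its value was seen, was at -1.33 (adjusted p = 5.20e-06). Whether the change of Aldh18a1 depends on ATF4 was not tested.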

How the data were processed

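RNA of 24 NIH3T3 samples (8 times, 3 replicates) was read on Affymetrix MoGene 1.0 ST arrays. The authors deposited log2 values made with Partek and RMA (robust multi-array averaging), per the submitters' processing notes. The log2 scale was inferred from the values (software version not given in the sources used here). They were analysed as they stood. The means of the replicate numbers over the 8 times were equal for every gene (largest gap 8.75e-05), so an effect of replicate number had been taken out by a step the sources do not describe. The fit counts 16 residual degrees of freedom where fewer remain, and its p-values are somewhat too small.

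There were 35399 probe sets: 21789 named 1 gene, 1621 named several and 11989 were unnamed. The probe set with the highest mean was taken per gene, which gave 19938 genes. Symbols were compared with RefSeq (0 updated, 91 probe sets unmatched). Pycr3 of the lists was found under its older symbol, Pycrl.

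In R 4.3.3, limma 3.58.1 fitted 1 mean per time to the 24 arrays together. Tests were moderated and two-sided, adjusted by Benjamini-Hochberg over all genes within each comparison, and called at an adjusted p under 0.05. The fit was tested on constructed data. Alternatives were the replicate block, arrays left out, other probe set rules, a filter on dim genes, repeated quantile normalization, another prior and fits to the times compared alone. Named genes were the 9 enzymes, up to 4 genes per list by the F-test and the 3 genes most like each enzyme called by it. In that likeness rule, gene models without a proper name (such as Gm, Rik and LOC) and Mir and Snor symbols were passed over. The enzymes and lists were chosen with earlier results of these data known.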

Additional observations from a re-analysis of the deposited data

How the results depend on the processing

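Under the alternatives other than leaving out 1 array, 877 of 886 single-enzyme results kept their side of the threshold. Of the others, 8 lost a call and 1 gained a call. Leaving out 1 array kept 817 of 840 on their side, with 22 lost and 1 gained. No called value changed sign in either, but some uncalled values did. Oat at 120 against 60 min went from 0.04 to -0.03 without both off-place arrays. Asl at 60 min against 0 min went from -0.02 to 0.05 without replicate 1 of 60 min. The number of enzymes called at 240 min against 0 min was 0, and 1 (Aldh18a1) when replicate 3 of 120 min and of 240 min were left out together (0 to 1 leaving out single arrays). At 360 against 240 min it was 2, and 1 to 2 leaving out single arrays. With only the arrays of these times in the fit it was 0 (Aldh18a1 adjusted p = 0.0722, Glul 0.0923). That fit used fewer arrays, and why the calls were lost was not tested. Leaving out single arrays gave 2 to 3 at 360 min, 3 to 4 at 600 min and 3 to 4 late against early, and did not move the 3 called by the F-test or at 480 min.

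With the replicate block the number called was 2 at 360 min, 3 at 480 min, 4 at 600 min, 3 late against early and 3 by the F-test, with Oat at 360 min (adjusted p = 0.0504) and Asl late against early (adjusted p = 0.0598) lost. Whether arrays of the same number deviate together could not be checked, since the deposited values have equal means for each replicate number. The number of arrays, 3 per time, limits the detection of small changes, and Arg1, Arg2, Prodh and the probe sets of Ass1 and Gm5424 were near background.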
